A study of Solanum commersonii and Solanum tuberosum with 8 samples.

Results

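A set of 120 array clones, of 11366 measured, was at least 2-fold higher after 24 h of cold in leaves of the cultivated potato Solanum tuberosum and below that line in every other cold column of the study. The set was chosen by the deposited values themselves: a log2 ratio of 1 or more in S. tuberosum at 24 h, and below 1 in S. tuberosum at 2 h and 7 d and in the wild potato S. commersonii at 2 h, 24 h and 7 d. These 6 columns are therefore described and not tested, and only the 2 columns of plants carrying 35S::AtCBF3 are readouts that the choice did not use. The clones are known by identifiers alone, with no gene names in the sources used here, so no gene, pathway or sequence is given for them.

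S. commersonii survives freezing and becomes hardier after a period of chilling, while S. tuberosum is sensitive to frost and gains little from such a period. In Arabidopsis, cold quickly induces the CBF transcription factors, among them CBF3. These bind a short element in the promoters of cold-responsive genes and activate them, and that set of genes contributes to freezing tolerance. Genes outside the CBF set also respond to cold.

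Leaf RNA was compared on 2-colour arrays, with the cold or transgenic RNA in one channel and warm wild type of the same species in the other. Wild-type plants of both species, grown for 3 weeks at 25°C in days of 16 h light and 8 h dark, were moved to 2°C at 8 h after dawn; light was 50 in the cold and 350 in the warm, in one unit, so that light and temperature changed together and cannot be told apart. Warm plants harvested at 2 h served the 2 h samples, and warm plants harvested at 24 h served both the 24 h and the 7 d samples of their species, so the 7 d plants were older than their controls. The transgenic plants carried Arabidopsis CBF3 behind the 35S promoter, which is active in most tissues. They were also 3 weeks old and stayed at 25°C under light of 350, in days of 16 h light and 8 h dark. They came from 3 independent S. commersonii and 2 independent S. tuberosum lines, and were harvested 8 h after dawn. For transgenic S. tuberosum the genotype label reads S. commersonii, against the title, source and organism, which were followed. No cultivar is given.

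Each column held 1 value per clone that the authors had combined from 3 slides, or 2 slides for the S. tuberosum transgenic plants. There was thus no spread between replicates, no test was possible, and each statement compares those single values. A central spread (SD from the median absolute deviation over all clones) of 0.37 in the S. tuberosum 24 h column and between 0.22 and 0.48 over the 8 columns gives the scale of the ratios. With 3 slides the dyes cannot have been balanced, and a dye effect may be part of a value. Positive ratios were read as more RNA in the chilled or transgenic plants, which is likely from the order of the channels but not stated; if the ratios ran the other way, all directions here would turn.

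In S. tuberosum at 24 h the 120 clones had log2 ratios from 1.003 to 2.12, with a median of 1.22 (2.32-fold). They stood close to the line that chose them: 103 were under 3-fold, 17 were at 3-fold or more and 3 at 4-fold or more. The 1354 clones that were at least 2-fold higher in this column (11.9% of all clones) had a median of 1.97, so the 120 clones, 8.86% of them, had the lower median. Most of the others, 905 clones, were also at least 2-fold higher at 2 h in one or both species, and not at 7 d or in S. commersonii at 24 h. A further 45 clones were higher at 24 h in both species and at no other time, and 67 missed the set through the 7 d columns alone. The remaining 217 were higher in columns of more than 1 of these kinds.

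The choice of the clones fixed a 24 h value above the 2-fold line in S. tuberosum and values below it at 2 h and 7 d. The time course given here is therefore a description of the set. The median of the 120 clones was 0.17 at 2 h, with values from -0.69 to 0.99. At 7 d the median was 0.41, with values from -1.34 to 0.99. There 98 of the 120 clones (81.7%) were above 0, against 49.1% of all clones, and 4 were at least 2-fold lower. Over all 11366 clones the medians at 2 h, 24 h and 7 d were -0.0031, 0.0066 and -0.0075. In 35 of the 120 clones the 24 h value exceeded both other S. tuberosum times by at least 2-fold, a count that the choice also favours.

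In S. commersonii the same clones were mostly on the same side of 0 at 24 h, at lower values. The median there was 0.35 (1.27-fold), with values from -0.88 to 0.99, and 100 of the 120 clones were above 0, against 50.5% of all clones. A total of 40 clones (33.3%) were at 1.5-fold or more, against 9.06% of all clones, and 20 were below 0. This was not particular to the set. Of the 905 clones that were also higher at 2 h, 97.6% were above 0 in this column and 43.1% at 1.5-fold or more. Both sets were held under 2-fold in this column by their choice. The median was 0.18 at 2 h, with values from -1.04 to 0.99, and -0.014 at 7 d, with values from -1.79 to 0.89.

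**Figure D1:**
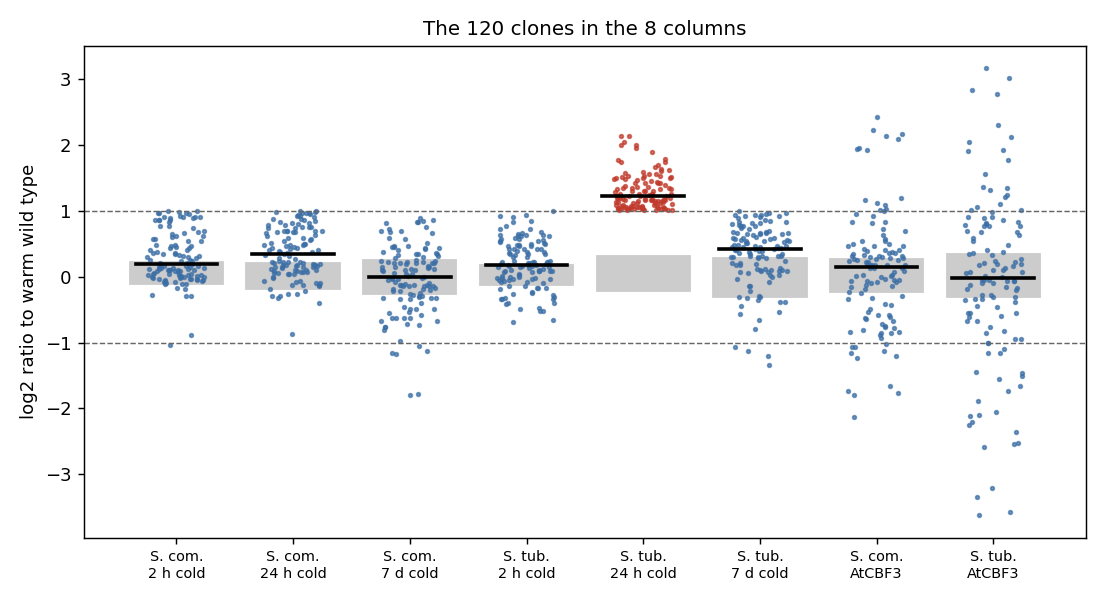
Log2 ratio to warm wild type of each of the 120 clones (points) in the 8 columns, with their median (black line) and the middle 50% of all 11366 clones (grey box); S. com. and S. tub. are the species, AtCBF3 the transgenic plants in the warm, and dashed lines mark 2-fold. The red points of S. tuberosum at 24 h lie between 1.003 and 2.12, and the transgenic columns, which the choice did not use, have points past 2-fold on both sides.

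The difference between the species at 24 h ranged widely. The S. tuberosum log2 ratio exceeded that of S. commersonii by 0.036 to 2.57, with a median of 0.95. It was at least 2-fold above in 55 clones (45.8%) and under 1.5-fold above in 27. Setting S. tuberosum at 24 h against the highest of the 5 other cold columns, the gap was at least 2-fold in 22 clones and had a median of 0.54. Only 37 of the 120 clones (30.8%) were below 1.5-fold in all 5 other cold columns, and the other 83 were between 1.5-fold and 2-fold in at least 1 of them. The name "24 h in S. tuberosum alone" thus states where the 2-fold line fell. Each of the 120 clones also had a smaller positive ratio in another cold column, of 0.15 or more.

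**Figure D2:**
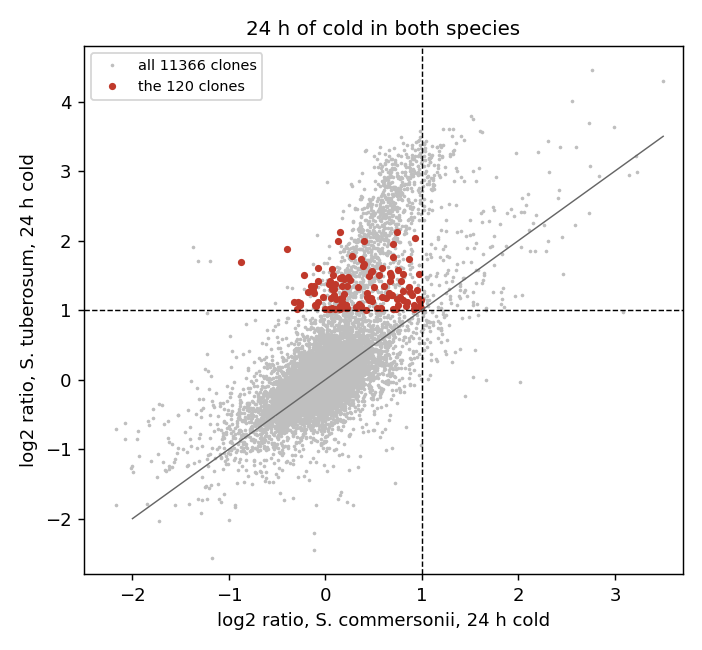
Log2 ratio at 24 h of cold in S. commersonii (x axis) and S. tuberosum (y axis) for all 11366 clones (grey) and the 120 clones (red), with dashed 2-fold lines and the line of equal ratios. Red points reach from the left of 0 to just under the S. commersonii line at 0.99, and the grey points in the same area were left out for their 2 h or 7 d values.

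The values next to each line show how fine the separation was. The lowest S. tuberosum 24 h value inside the set was 1.00326 and the highest outside, among clones that met every other condition, was 0.997. A total of 33 clones were within 0.1 above this line and 47 within 0.1 below it. For S. commersonii at 24 h the nearest values inside and outside were 0.992 and 1.03, and 45 clones missed the set on this condition alone. The 2 h condition in S. commersonii alone removed 261 clones (nearest values 0.990 and 1.002), the 7 d condition in S. tuberosum removed 44 (0.988 and 1.003), the 2 h condition in S. tuberosum removed 7 (0.994 and 1.01), and the 7 d condition in S. commersonii removed 3 (0.891 and 1.13).

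The clones fell into kinds according to the cold column in which they were next highest. For 38 clones this was S. tuberosum at 7 d, with a median of 0.70 there and of 0.077 at 2 h in the same species. For 36 clones it was S. commersonii at 24 h, with a median of 0.74 there. These medians follow from the sorting, which took each clone's highest remaining cold value.

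In 27 clones S. commersonii at 2 h came next, with a median of 0.85 that was down to 0.23 by 24 h, and in 14 clones S. tuberosum at 2 h, with 0.54. The last 5 clones were next highest in S. commersonii at 7 d, with 0.83. The median at 24 h in S. tuberosum was similar across these kinds, from 1.16 to 1.25.

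After 7 d the S. tuberosum value was above that of S. commersonii in 93 of 120 clones (77.5%), with a median difference of 0.29, while over all clones this was so in 50.0%. It was at least 2-fold above in 12 clones, against 1.28% of all clones, and at least 2-fold below in none. The S. tuberosum 7 d and 24 h columns share their warm control, and the clones were chosen for a high 24 h value in S. tuberosum, a lower one in S. commersonii and 7 d values under the line. That choice itself favours S. tuberosum, so these counts describe the set and show no difference between the species. The part of that control in the 7 d values cannot be told apart from the cold plants' own. At 7 d 6 of the clones were at least 2-fold lower in S. commersonii, against 5.42% of all clones, and 4 in S. tuberosum, against 6.42%. The 2 clones that were lower in both species at 7 d were then at -1.17 and -1.15 in S. commersonii, and their S. tuberosum values were -1.13 and -1.06. At 24 h in S. tuberosum they were at 1.12 and 1.05. With 35S::AtCBF3 they were at -2.10 and -2.52 in S. tuberosum, but above 0 in S. commersonii, at 0.46 and 0.31. The share of all clones lower in both 7 d columns was not counted.

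The clones STMFB38 and STMHZ35 had the largest gaps between S. tuberosum at 24 h and the highest other cold column, 1.47 and 1.44. In S. tuberosum the log2 ratio of STMFB38 was -0.35 at 2 h, 1.88 at 24 h and 0.41 at 7 d, and in S. commersonii it was -0.0015, -0.40 and -0.15. Its ratio at 24 h was 3.69-fold up in one species and 1.32-fold down in the other. With 35S::AtCBF3 it was at 2.03 in S. tuberosum (4.10-fold higher) and at 0.49 in S. commersonii. STMFB38 was thus high in S. tuberosum at 24 h of cold, on which it was chosen, and with AtCBF3. It was under 1.5-fold in S. tuberosum at 2 h and 7 d and in each S. commersonii column.

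STMHZ35 went from -0.28 at 2 h to 2.12 at 24 h and 0.69 at 7 d in S. tuberosum, and its S. commersonii values were 0.14, 0.15 and -0.63. Its 24 h ratio of 4.36-fold was the second highest of the 120 clones. With 35S::AtCBF3 it was lower in both species, at -1.44 in S. tuberosum and -1.06 in S. commersonii. The 2 clones with the clearest 24 h values therefore stood on opposite sides of warm wild type when AtCBF3 was expressed.

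The 35S::AtCBF3 columns showed whether the 120 clones also differed from wild type in the warm when CBF3 was made without cold. They did so on both sides, and the medians stayed near 0, at 0.15 for S. commersonii and -0.028 for S. tuberosum, where all clones had 0.0090 in both columns. In S. commersonii the values ran from -2.13 to 2.42, with 14 clones (11.7%) at least 2-fold higher, against 5.81% of all clones, and 12 (10.0%) lower, against 3.11%. With the columns scaled to one central spread the rule gave 2 lower clones, and their share (2.94%) was close to that of all clones (2.54%). In S. tuberosum they ran from -3.62 to 3.16, with 20 clones (16.7%) higher, against 6.99% of all clones, and 25 (20.8%) lower, against 7.28%. The central spread of the 120 clones was 0.60 and 1.17 in these columns, where that of all clones was 0.37 and 0.48.

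The 14 clones that were higher in S. commersonii had a median of 1.92 (3.80-fold), and the 20 in S. tuberosum 1.66 (3.17-fold). The 12 and 25 clones that were lower had medians of -1.22 and -2.05. In all, 56 of the 120 clones (46.7%) were at least 2-fold from wild type in at least 1 transgenic column, against 18.7% of all clones, and 64 were within 2-fold in both. The species shared 6 higher clones (5%, against 2.60% of all clones) and 6 lower clones (5%, against 1.60%). The signs of the 2 transgenic columns were equal in 88 clones (73.3%), against 61.9% of all clones, while the correlation between the columns was lower across the 120 clones (r = 0.36) than across all 11366 (r = 0.48). Both are descriptions across clones, which are not independent. The 120 include 3 clones past 2-fold in opposite directions in the 2 columns (2.50%, against 0.185% of all clones), and they lower the correlation. It was not computed without them, so whether the other clones also had a lower correlation than all clones is not known here.

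**Figure D3:**
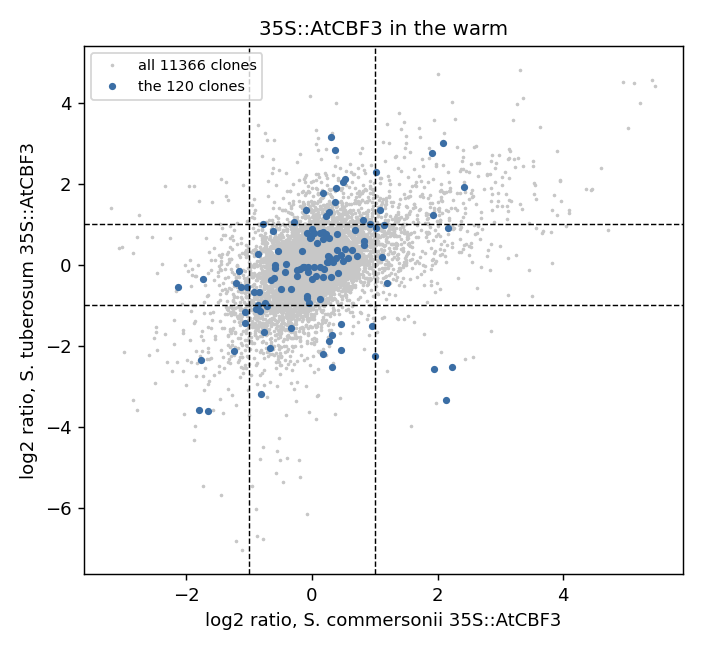
Log2 ratio with 35S::AtCBF3 in the warm in S. commersonii (x axis) and S. tuberosum (y axis) for all 11366 clones (grey) and the 120 clones (blue), with dashed 2-fold lines. The blue points spread further along the S. tuberosum axis, from -3.62 to 3.16, and 3 of them lie at the lower right, high in S. commersonii and low in S. tuberosum.

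Neighbouring sets of clones gave other values in the transgenic columns. Of the 45 clones that were at least 2-fold higher at 24 h in both species and not at 2 h or 7 d, the transgenic S. commersonii column had 15.6% higher and 11.1% lower, and the transgenic S. tuberosum column 11.1% higher and 22.2% lower. The mirror set, with S. commersonii at 24 h as its only higher column, had 33 clones, of which 42.4% were higher and 0 lower in transgenic S. commersonii; the transgenic S. tuberosum column had 33.3% higher and 6.06% lower. The 905 clones that passed 2-fold in S. tuberosum at 24 h and in either species at 2 h (898 in S. commersonii, 644 in S. tuberosum) had 2.76% higher and 0.663% lower with transgenic S. commersonii, and 3.31% on each side with S. tuberosum. The 120 clones were thus nearest to the set that was higher at 24 h in both species, with calls on both sides, and the mirror set had its calls almost wholly on the higher side. These differences between sets were not tested, as each column has 1 value per clone and the sets were chosen on the cold columns.

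**Figure D4:**
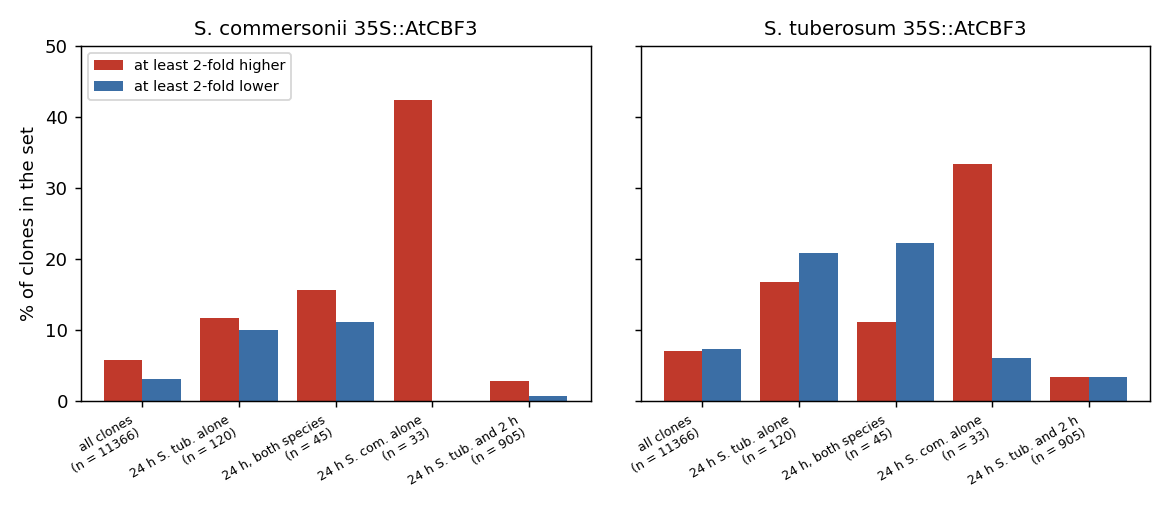
Share of clones (%) that were at least 2-fold higher (red) or lower (blue) with 35S::AtCBF3 in S. commersonii (left) and S. tuberosum (right), for all clones and for 4 sets chosen on the cold columns; n is the number of clones and there are no error bars because each column has 1 value per clone. The 120 clones have bars on both sides, at 11.7% and 10.0% on the left and 16.7% and 20.8% on the right.

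The 7 d values of the clones were set beside their call in the transgenic plants. The choice had removed every clone at 2-fold or more in either 7 d column, so these values are capped. How all clones with the same calls stood at 7 d was not examined. The 20 clones that were higher with AtCBF3 in S. tuberosum had a median of 0.70 at 7 d in that species, and all 20 were above 0. In that column 81.7% of the 120 clones and 49.1% of all clones were above 0. The 25 clones that were lower had a median of 0.28, with 18 above 0. Whether the wild type set against the transgenic plants was also that of the cold series is not stated.

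At 7 d in S. commersonii the same 20 and 25 clones had medians of 0.13 (13 above 0) and -0.29 (7 above 0). The 75 clones between the 2-fold lines had medians of 0.39 in S. tuberosum and 0.031 in S. commersonii. At 24 h in S. tuberosum the medians were 1.19 for the higher, 1.18 for the lower and 1.25 for the clones between. Split by the call in transgenic S. commersonii, the 7 d medians were 0.33 for the 14 higher, -0.014 for the 94 between and -0.45 for the 12 lower clones in S. commersonii. In S. tuberosum they were 0.63, 0.38 and 0.39, so that the lower clones were not the lowest there. Of the 20 clones higher in transgenic S. tuberosum, 12 were next highest in S. tuberosum at 7 d, against 38 (31.7%) of the whole set. Of the 25 lower clones, 12 were next highest in S. commersonii at 24 h, against 36 (30%) of the whole set. Next highest in S. commersonii at 24 h were 5 higher clones, and in S. tuberosum at 7 d 5 lower clones. The sorting used cold values that the choice had capped, and a link with the transgenic call was not tested.

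**Figure D5:**
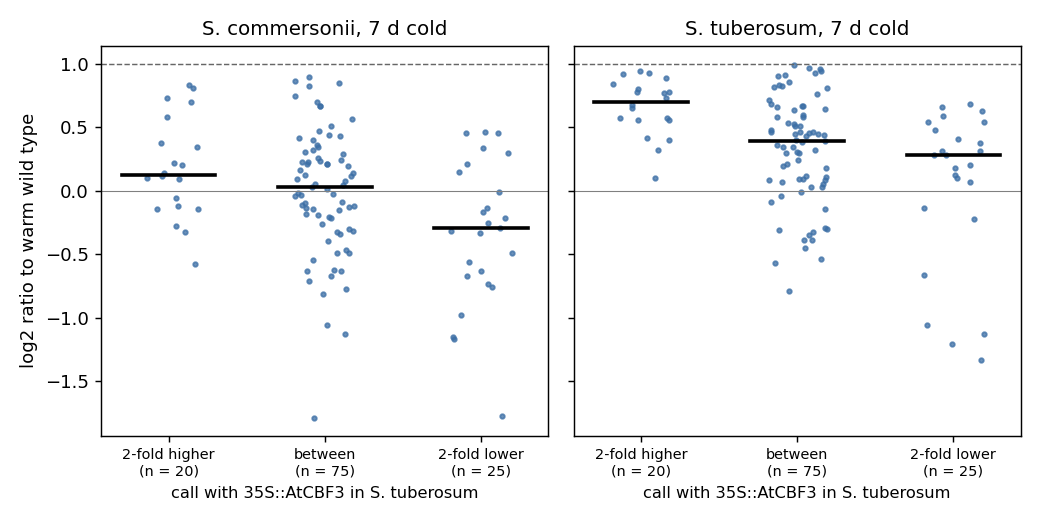
Log2 ratio after 7 d of cold in S. commersonii (left) and S. tuberosum (right) of the 120 clones, split by their call with 35S::AtCBF3 in S. tuberosum; points are clones, black lines medians, and the dashed line is the 2-fold limit of the choice. In both panels the median is highest for the 20 clones that were higher with AtCBF3 and lowest for the 25 that were lower.

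The lowest means over both transgenic columns belonged to STMFB56 and STMFB14. STMFB56 was at -3.58 in S. tuberosum (11.9-fold lower) and at -1.80 in S. commersonii with 35S::AtCBF3. STMFB14 was at -3.62 (12.3-fold lower) and at -1.65. These clones were far below wild type with AtCBF3 in the warm while being above it after 24 h of cold.

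In chilled S. tuberosum STMFB56 was at 0.24 after 2 h, 1.03 after 24 h and -1.34 after 7 d, and its S. commersonii values were -0.88, 0.99 and -0.76. The S. tuberosum values of STMFB14 were 0.36, 1.14 and -1.21, and those of S. commersonii -1.04, 0.99 and -0.67. Both clones thus went from above wild type at 24 h to below it at 7 d in both species. They were the highest 2 of the 120 clones in S. commersonii at 24 h, 0.036 and 0.15 below their S. tuberosum values, so they belong to the set only because 0.99 lies under the line.

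STMFB56 and STMFB14 differed from each other by at most 0.16 in any of the 8 columns. The next nearest clone on the array differed from STMFB56 by 1.02 and from STMFB14 by 1.09 in at least 1 column. Whether both carry the same gene is not known here.

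A group of 3 unnamed clones stood opposite in the transgenic plants, past 2-fold on the higher side for S. commersonii and on the lower side for S. tuberosum. With S. commersonii their log2 ratios were 2.13, 1.95 and 2.22, and with S. tuberosum -3.34, -2.58 and -2.53. They made up 2.50% of the 120 clones, against 0.185% of all clones, and 14.3% of the 21 clones on the array with this pattern. In the cold they were at 1.35, 1.01 and 1.04 in S. tuberosum at 24 h, within 0.23 of 0 at 2 h in both species and at 24 h in S. commersonii, and between 0.21 and 0.59 at 7 d. Their profiles were alike, with no more than 0.81 between them in any column, and whether they carry the same gene is not known. No member had the reverse pattern, against 15 clones (0.132%) on the array. The count of 3 depends on the line. Other members were just under it in transgenic S. commersonii, at 0.999 and 0.951, and at -2.25 and -1.51 in transgenic S. tuberosum. How many of all clones fell as little short was not counted.

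The 37 clones that stayed below 1.5-fold in all 5 other cold columns also had transgenic calls on both sides. Their median at 24 h in S. tuberosum was 1.30, and 0.088 in S. commersonii. With 35S::AtCBF3 the S. commersonii column had 3 of them higher (8.11%, near the 5.81% of all clones) and 4 lower (10.8%, against 3.11%). The S. tuberosum column had 5 higher (13.5%, against 6.99%) and 7 lower (18.9%, against 7.28%). The 83 other clones had 15 higher (18.1%) and 18 lower (21.7%) in S. tuberosum. In S. commersonii they had 11 higher (13.3%) and 8 lower (9.64%). With the columns scaled to one central spread the rule gave 68 clones, 59 of them among the 120.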

How the data were processed

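Per the labels, aminoallyl labelling attached Cy3 or Cy5 to leaf cDNA, both dyes being listed for each channel. The deposited table holds log2 ratios, 1 value for each of 11366 clones in 8 columns with no missing value, which the authors combined from 3 slides per column, or from 2 for S. tuberosum 35S::AtCBF3. limma is named in the submitters' processing notes; its settings, the background correction and how slides were averaged were not given in the sources used here. Log base, centring and direction are likewise unstated; base 2 was read from the use of limma, and column medians lay between -0.0075 and 0.011. Signal per slide was not analysed here, and the few slides limit the precision.

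Members were found and counted with Python 3.11.15 and pandas 2.3.3, with 2-fold as the line for calls, and the counting was tested on simulated data. The members and the comparison sets were chosen with earlier results of these data known. The named clones are the 2 members with the largest gap at 24 h and the 2 with the lowest mean in the transgenic columns. Gene lists written down for named clones were not used, as no clone was matched to a gene. With 1 value per clone and column no test or interval was computed. Alternatives were thresholds of 1.5-fold and 3-fold, centring, scaling and other margins and columns in the rule. The 1.5-fold and 3-fold thresholds also replaced 2-fold as the line for the transgenic calls.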

Additional observations from a re-analysis of the deposited data

Results flagged for a closer look

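Some values had opposite signs in the 2 species under the same treatment, each from 1 value per species, so the difference was not tested. At 24 h of cold STMFB38 was at 1.88 in S. tuberosum and -0.40 in S. commersonii, a difference of 2.28, and at 7 d the difference was 0.56. STMHZ35 at 2 h was lower in S. tuberosum, with a difference of -0.41 from S. commersonii, and higher at 7 d, at 0.69 against -0.63, with a difference of 1.32. STMFB56 and STMFB14 were below warm wild type in S. commersonii at 2 h and above it in S. tuberosum, with differences of 1.12 and 1.40. The differences of STMFB38 at 7 d and of STMHZ35 at 2 h come from ratios under 1.5-fold in each species.

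With 35S::AtCBF3, 3 of the 120 clones passed 2-fold in opposite directions, higher for S. commersonii and lower for S. tuberosum. The medians of the 120 clones also had opposite signs in 2 treatments, both close to 0 in at least 1 species: S. tuberosum minus S. commersonii was 0.42 at 7 d and -0.18 with 35S::AtCBF3.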

How the results depend on the processing

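No paired analysis was possible because each group has 1 deposited column, and leaving out a slide could not be done for the same reason. Membership depended on the line: a threshold of 1.5-fold gave 168 clones with 37 of the 120 among them, and 3-fold gave 88 with 17 of the 120, while centring the columns gave 120 with 119 shared. Scaling the columns to one central spread gave 68 members, other cold columns below 1.5-fold 37, a further 2-fold distance from S. commersonii at 24 h 55, no condition on 7 d 187 and no condition on 2 h 1025. Members higher with 35S::AtCBF3 in S. commersonii, 14 as reported, numbered 30 at 1.5-fold, 5 at 3-fold, 8 with scaling, 3 and 6 with the other 2 margins, 31 without the 7 d condition and 39 without the 2 h condition. In S. tuberosum, 20 as reported, they numbered 33, 5, 10, 5, 9, 49 and 50 in the same order. Lower members in S. commersonii, 12 as reported, numbered 27 at 1.5-fold, 5 at 3-fold, 2 with scaling and 4 with other cold columns below 1.5-fold. In S. tuberosum, 25 as reported, they numbered 6 at 3-fold, 10 with scaling, 7 and 9 with the other margins and 55 without the 2 h condition. The median with 35S::AtCBF3 in S. commersonii, 0.15 as reported, was 0.0032 and -0.065 with the other margins and 0.28 without the 7 d condition; in S. tuberosum, -0.028 as reported, it was 0.25 with scaling and 0.32 without the 7 d condition. These counts move partly because the number of members does, by construction. At 1.5-fold and 3-fold the line for the transgenic calls moved with the threshold. Of all clones, 11.4% and 2.75% were then higher in S. commersonii, against 5.81% at 2-fold. Centring and scaling also changed the transgenic values themselves. The cause of the rest was not tested. As a share of members, the 4 transgenic counts lay above the share of all clones in 28 of 32 cases under the 8 alternatives. They lay below it in the 4 cases without the 2 h condition, which adds the 905 clones higher at 2 h. The cases are repeated counts of shared clones and not separate evidence: the sets of 37 and 55 lie within the 120. The 28 include shares near that of all clones, such as 8.11% against 5.81% with other cold columns below 1.5-fold. With scaling, lower members in S. commersonii were 2.94%, against 2.54% of all clones.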

Other observations

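The 120 clones were spread over the clone names. They came from 80 of the 157 name blocks, in which the first 5 characters are equal, with 1 member in 50 of these blocks and at most 5 in any. The block of STMFB38, STMFB56 and STMFB14 held 4 of the 120 clones among its 72, a larger share than the 120 among all 11366. This block was looked at because it holds named clones, and the difference was not tested. Whether clones of a block were printed or sequenced together is not known. Among the 7140 pairs of members, 5 pairs differed by less than 0.25 in each of the 8 columns, and the median pair differed by 1.502 in at least 1 column.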
